A study of Mus musculus with 2 samples.

Results

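The homing chemokines and their receptors described here are 9 genes, taken from a fixed list of names: the ligands Cxcl12, Cxcl13, Cxcl14, Ccl19 and Ccl21a, the receptors Cxcr4, Cxcr5 and Ccr7, and the scavenging receptor Ackr3. They were 9 of the 56954 features of the count matrix, and each of the 9 was among the 18568 features with at least 20 unique molecular identifiers (UMIs, which tag single captured mRNA molecules). The rule lists them by name and sets no threshold on a measured value.

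Live non-cardiomyocytes were isolated from the hearts of 3 control and 4 Nts KO mice, aged 6 to 8 weeks per the labels, 7 days after transverse aortic constriction (TAC), an operation that narrows the aortic arch and so raises the pressure against which the heart pumps. Cells of all 7 mice were marked with hashtags, sorted as positive for calcein-AM and negative for DAPI into 1 tube, and sequenced as 1 droplet library. The title ties the knockout to neurotensin from lymphatic vessels; the driver of the deletion is not named in the labels, which give both libraries a WT genotype although the title and the design text list Nts KO mice. Nothing used here assigns a cell to a mouse, so every value below is a level in 1 pool of both genotypes after TAC, control and knockout could not be compared, and no comparison between cell classes has a replicate check, a test or a p-value.

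Homing chemokines are made steadily by stromal and vascular cells and position leukocytes that carry the matching receptor. Cxcl12 binds the signalling receptor Cxcr4 and the scavenger Ackr3, which takes the ligand up and degrades it; Ccl19 and Ccl21a bind Ccr7, which guides lymphocytes and mature dendritic cells into lymphatic vessels and lymph nodes; Cxcl13 binds Cxcr5 and draws B cells into follicles. Cxcl14 is a conserved, less understood member of the family without an undisputed receptor.

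The 5 ligands carry the cysteine pattern that names chemokine classes, and the stretch of coding sequence around it is shown because it separates the CXC ligands from the CC ligands of the set. The stretches are from the coding transcripts of the GRCm38 annotation, 5′ to 3′ on the coding strand, with the first cysteine codons of the mature chemokine in capitals.
Cxcl12: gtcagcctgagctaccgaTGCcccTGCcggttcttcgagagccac
Cxcl13: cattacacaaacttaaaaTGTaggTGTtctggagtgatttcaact
Cxcl14: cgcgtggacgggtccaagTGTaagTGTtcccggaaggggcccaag
Ccl19: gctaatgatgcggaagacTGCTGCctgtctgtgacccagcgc
Ccl21a: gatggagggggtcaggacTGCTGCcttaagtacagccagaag
In the 3 CXC stretches 1 codon stands between the capitals, and in Ccl19 and Ccl21a 0 codons do. Ccl21a has a near copy, Ccl21b, whose coding sequence of the same 402 bases differs at 2 positions (99.5% identity), the first of which is the capital in bases 64 to 104 below.
Ccl21a: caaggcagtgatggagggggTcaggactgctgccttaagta
Ccl21b: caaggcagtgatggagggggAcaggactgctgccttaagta
The matrix held 9867 UMIs under Ccl21a, and 0 under Ccl21b and 0 under Ccl21d. How reads that fit several copies were counted is not given in the sources used here. Whether the Ccl21a values are those of the copies together therefore cannot be told from these counts.

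In GRCm38 (GENCODE M21 annotation) Cxcl12 lies at chr6:117168535-117181367 on the plus strand, with 4 exons in its longest coding transcript. Ackr3 lies at chr1:90203980-90216751 on the plus strand and Cxcr4 at chr1:128588199-128592293 on the minus strand, each with 2 exons. Cxcl13 lies at chr5:95956951-95961068 on the plus strand and Cxcl14 at chr13:56288643-56296551 on the minus strand. Ccl19, at chr4:42754525-42756577, and Ccl21a, at chr4:42772860-42773993, are neighbours on the minus strand. Ccr7 lies at chr11:99144196-99155077 on the minus strand, and Cxcr5, at chr9:44511787-44561877 on the minus strand, overlaps Bcl9l on the other strand. Bcl9l was at 20.7 CPM, the counts of a gene per 1000000 UMIs of a class, in the B cells described below against 23.7 over all cells, a level that did not follow the Cxcr5 pattern.

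The 150 bases before the transcription start are shown for 4 genes with contrasting sources, namely the blood vessel ligand, its scavenger, the macrophage ligand and the lymphatic ligand, taken from RefSeq (GRCm38.p6) on the strand of the gene. Capitals mark matches on either strand to TATAAA, the core of a TATA box, or to GGGCGG, the GC box that Sp1 family factors bind; neighbouring GC boxes can overlap.
Cxcl12, chr6:117168385-117168534, plus: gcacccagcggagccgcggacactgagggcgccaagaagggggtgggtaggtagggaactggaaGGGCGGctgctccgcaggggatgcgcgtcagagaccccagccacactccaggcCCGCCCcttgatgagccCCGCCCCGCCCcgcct
Ackr3, chr1:90203830-90203979, plus: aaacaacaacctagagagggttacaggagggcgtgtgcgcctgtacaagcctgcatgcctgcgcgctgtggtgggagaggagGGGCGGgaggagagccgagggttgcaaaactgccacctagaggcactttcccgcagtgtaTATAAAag
Cxcl13, chr5:95956789-95956938, plus: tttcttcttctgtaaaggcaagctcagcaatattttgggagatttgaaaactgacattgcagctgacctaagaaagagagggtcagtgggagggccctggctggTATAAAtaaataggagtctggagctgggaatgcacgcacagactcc
Ccl21a, chr4:42773992-42774141, minus: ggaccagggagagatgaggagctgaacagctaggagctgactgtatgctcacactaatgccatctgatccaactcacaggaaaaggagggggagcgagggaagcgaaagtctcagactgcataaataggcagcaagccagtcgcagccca
Over the full 250 bases before the start, Cxcl12 held 5 matches to GGGCGG and 14 CpG dinucleotides, and Cxcl13 held 1 match to TATAAA and 2 CpG. TATAAA was present in 12.4% and GGGCGG in 32.7% of the 32851 windows of the same length over all genes, in which the median was 6 CpG. Upstream windows were matched for 7 of the 9 genes.

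The library held 9369 barcodes with 2567 to 42567 UMIs each, of which 357 (3.81%) were called doublets and left out. Of the 9012 cells kept, 8593 (95.4%) passed the marker gate of 1 lineage: 5399 stromal or endothelial cells, with a median of 7328 UMIs, and 3194 leukocytes, with a median of 5315 UMIs. Classes were gated on raw UMIs of marker lists that hold none of the 9 genes, and are called by the name of their list in the sense of X-like cells; 3 cells passed a cardiomyocyte gate. The median mitochondrial share was 0.733%. Gates cut a continuum: of 5162 cells that passed the fibroblast list 70 were at its minimum and 76 others fell 1 marker short, and of 193 that passed the conventional type 2 dendritic list 112 were at its minimum. Shares of cells with a UMI are given after every cell was thinned to 2500 UMIs, which left out no cell; intervals are 95% exact Poisson or binomial intervals and cover counting error only. Levels are read along 1 gene across classes, since the counts are not scaled per gene length.

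Each of the 9 genes was unevenly divided between stroma and leukocytes. Summed over classes, 5 genes were at least 2-fold higher in stromal and endothelial cells (Cxcl12, Cxcl14, Ccl19, Ccl21a and Ackr3) and 4 in leukocytes (Cxcr4, Ccr7, Cxcr5 and Cxcl13). Among all 18344 genes with 20 UMIs over both sides, 49.1% passed the same fold in either direction, 30.7% toward stroma and 18.4% toward leukocytes. Cxcl12 was 42.9-fold (34.2 to 54.6), Ackr3 35.7-fold (30.5 to 42.1), Ccl21a 33.2-fold (27.8 to 39.9) and Cxcl14 14.0-fold (12.6 to 15.7) higher in stroma and endothelium. Cxcr4 was 86.0-fold (73.2 to 102), Ccr7 66.2-fold (53.6 to 82.8), Cxcr5 23.5-fold (12.7 to 48.4) and Cxcl13 14.1-fold (11.6 to 17.4) higher in leukocytes. With classes taken from clusters the Cxcl12, Ackr3 and Cxcl14 ratios were 16.6, 14.2 and 5.77, and without the 10 highest cells over both sides those of Cxcl13 and Ccl21a were 5.18 and 21.7.

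Fibroblasts held 74.3% of the Cxcl12 UMIs, 86.6% of Ackr3, 89.8% of Cxcl14 and 93.0% of Ccl19, while endothelial cells held 92.1% of Ccl21a. Leukocytes held 90.2% of Cxcr4, 86.7% of Ccr7, 78.9% of Cxcr5 and 77.8% of Cxcl13. Cxcl13 was thus the 1 ligand of the set counted mainly in leukocytes, and Ackr3 the 1 receptor counted mainly in stroma.

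**Figure D1:**
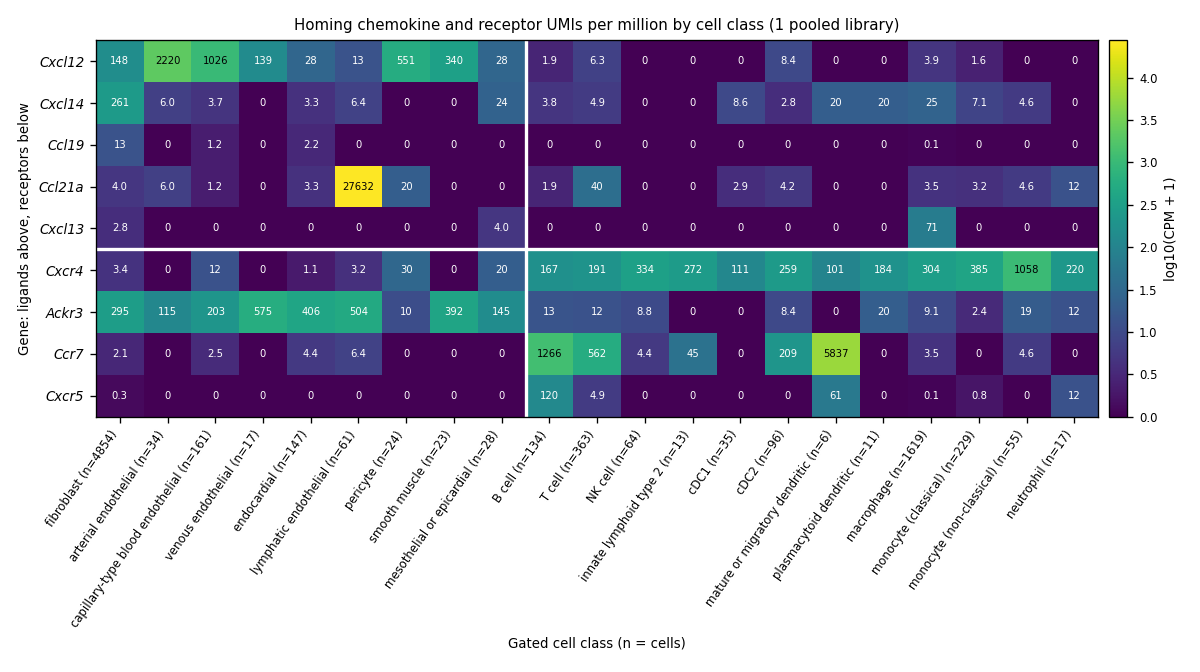
Level of each of the 9 genes (rows) in 21 gated classes (columns), as colour on a log10(CPM + 1) scale, 1 pooled library. The ligand rows other than Cxcl13 are brightest in fibroblast, mural and endothelial columns and the Cxcr4, Ccr7 and Cxcr5 rows in leukocyte columns; Cxcl13 is brightest in macrophages.

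The same genes were spread over cells very differently. A total of 7834 Cxcl12 UMIs came from 3025 cells, and 514 cells held 50% of them. The 13335 Ackr3 UMIs came from 3167 cells and the 6543 Cxcr4 UMIs from 2205 cells, with 522 and 458 cells holding 50%. At the other end, 18 cells held 50% of the 9867 Ccl21a UMIs and 4 cells held 50% of the 914 Cxcl13 UMIs, of which the 10 highest cells held 81.1%. Cxcl13 levels therefore rest on few cells in every class.

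**Figure D2:**
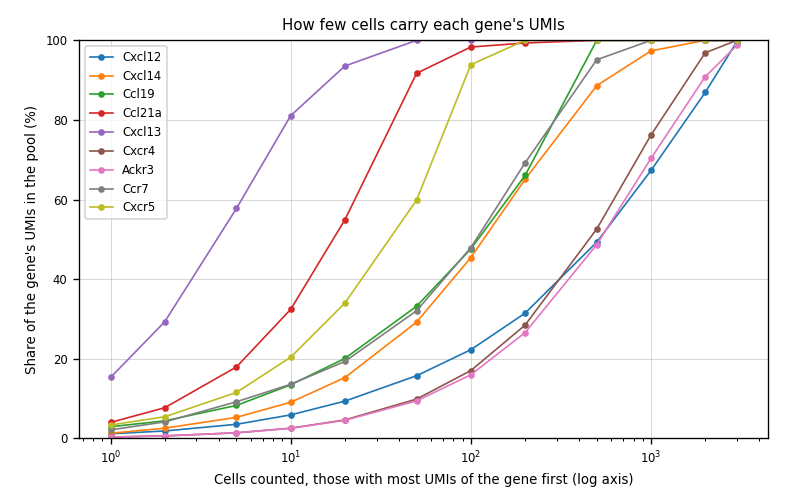
Cumulative percent of each gene's UMIs (y axis) against the number of cells ranked from highest to lowest (x axis, log scale), 9012 cells of 1 pooled library. The Cxcl13 and Ccl21a curves reach 50% at 4 and 18 cells, while those of Cxcl12, Cxcr4 and Ackr3 reach it at 514, 458 and 522 cells.

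Cxcl12, the ligand that retains Cxcr4-bearing cells in tissue, was highest in arterial and capillary-type endothelium. It stood at 2220 CPM (1999 to 2459) in 34 arterial cells and 1026 CPM (957 to 1098) in 161 capillary-type cells. Mural cells followed, with 551 CPM (415 to 717) in 24 pericytes and 340 CPM (242 to 464) in 23 smooth muscle cells. Fibroblasts stood at 148 CPM, and venous cells at 139 CPM had an interval (75.9 to 233) that held the fibroblast level. Endocardial cells stood at 27.7 CPM (18.0 to 41.0) and lymphatic cells at 12.8 CPM (3.48 to 32.7, from 4 UMIs). The endothelial classes thus differed widely in the gene, with the endocardial and lymphatic linings lowest.

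The capillary level was 6.91-fold that of fibroblasts (6.42 to 7.43) and 37.0-fold that of endocardial cells (24.9 to 57.5). With clusters the gap to endocardial cells was smaller. The cluster led by capillary cells stood at 1207 CPM and that led by endocardial cells, which made up 54.5% of it, at 170 CPM. Arterial cells were 2.16-fold above capillary cells (1.91 to 2.45), but 4 arterial cells held 209 of the 368 arterial UMIs. Without the 10 cells highest for Cxcl12 in the pool, the levels were 1106 CPM (940 to 1292) in arterial and 833 CPM (770 to 899) in capillary cells. The thinned share of cells with a Cxcl12 UMI was 61.8% of arterial, 59.0% of capillary, 62.5% of pericyte and 28.0% of fibroblast cells. In macrophages, which should lack the gene, it was 0.865%. The arterial (43.6% to 77.8%) and capillary (51.0% to 66.7%) intervals of the share overlapped. The capillary class was the highest without the 10 highest cells of each class, at 659 CPM. That step removed 10 of 34 arterial but 10 of 161 capillary cells, so it cannot rank the 2 classes. The capillary class was also the highest with classes from clusters, of which 0 were led by arterial cells.

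The pericyte and smooth muscle classes were checked for endothelial RNA. Pan-endothelial markers summed to 621 CPM in pericytes, with Pecam1, Cdh5, Tie1 and Robo4 at 0, and to 366 CPM in smooth muscle cells, with 5 of the 7 markers at 0. The part of that RNA in the mural Cxcl12 level was not tested.

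Between the capillary and lymphatic classes, 1 of 3 genes with enough counts was at least 2-fold higher in capillaries and 2 in lymphatics, against 12.9% of all genes higher in capillaries, 10.9% in lymphatics and 23.8% in either. Cxcl12 was 80.3-fold higher in capillary cells (31.3 to 295). Ackr3 was 2.49-fold higher in lymphatic cells (1.99 to 3.11), or 1.79-fold without the 10 highest cells over both classes, and Ccl21a at 1 UMI in capillary cells against 8654 in lymphatic cells was 22466-fold higher there (4031 to 887464). Ligand and scavenger of the Cxcl12 axis therefore stood in opposite order in these linings.

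Ackr3 was highest in venous cells at 575 CPM (437 to 744, 17 cells) and in lymphatic cells at 504 CPM (429 to 590), followed by endocardial cells at 406 CPM (366 to 450) and smooth muscle at 392 CPM (286 to 524). Capillary cells stood at 203 CPM (173 to 236) and arterial cells at 115 CPM (69.0 to 179). Venous cells could also pass the capillary list, whose markers summed to 21222 CPM in them against 41389 CPM in capillary cells. The part of that overlap in the venous level was not tested. Lymphatic cells were 4.40-fold above arterial cells (2.73 to 7.50) and venous cells 5.02-fold above them. Without the 10 highest cells of each class, fibroblasts at 287 CPM were the highest of 16 classes, venous cells not among them. That step removed 10 of 61 lymphatic cells but 10 of 4854 fibroblasts, so it cannot rank classes of such unlike size. The 10 cells highest for Ackr3 in the pool held 9 fibroblasts and 0 lymphatic cells, so leaving them out could not change the lymphatic level. Venous and lymphatic cells were not separated by these counts, nor were endocardial and smooth muscle cells or smooth muscle cells and fibroblasts: the intervals of those ratios held 1.

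Mural cells split for Ackr3. Smooth muscle cells held 45 Ackr3 UMIs and pericytes 1, a ratio of CPM of 39.1 (6.67 to 1580), although pericyte markers were also high in the smooth muscle class, at 14666 CPM in sum. For Cxcl12, pericytes were 1.62-fold above smooth muscle cells (1.06 to 2.51), but the clusters led by these classes stood close, at 492 and 480 CPM.

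**Figure D3:**
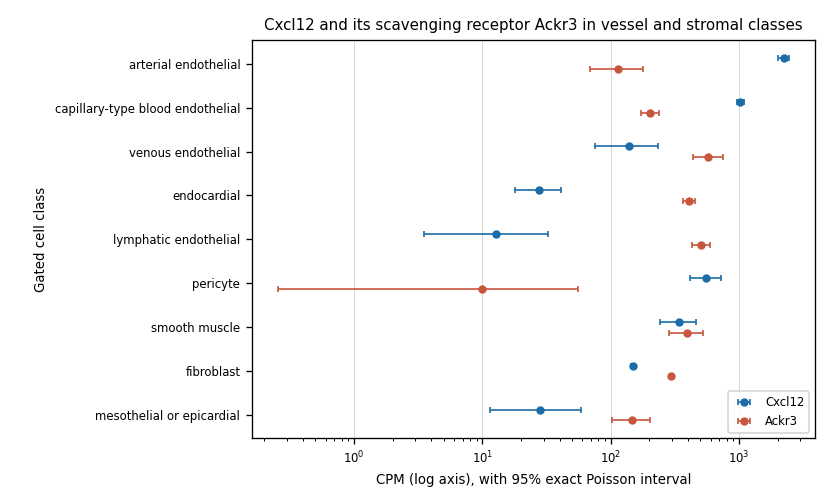
Cxcl12 and Ackr3 levels (CPM, log axis, points with 95% exact Poisson intervals) in 9 vessel, mural and stromal classes of 1 pooled library; the scale is read within a gene. Cxcl12 falls from 2220 in arterial to 12.8 CPM in lymphatic cells, and Ackr3 is 504 in lymphatic, 115 in arterial and 10.0 CPM in pericyte cells.

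Within fibroblasts Ackr3 marked the cells with Pi16 and Cd248, a signature of adventitial, progenitor-type fibroblasts. It was at 485 CPM (474 to 495) in the 1936 cells with both, and 3.67-fold higher than in the other fibroblasts (3.51 to 3.83). With 8 genes counted, 2 were at least 2-fold higher in these cells (Ackr3 and Cxcl13) and 1 lower (Ccl19, 2.27-fold, 1.86 to 2.78), against 1.75% of all genes higher, 3.39% lower and 5.14% in either direction. The thinned share of Pi16 and Cd248 cells with an Ackr3 UMI was 53.9%, against 34.2% of all fibroblasts and 2.59% of macrophages. Across thinned fibroblasts, Ackr3 stood at 117 CPM in cells with 0 Pi16 UMIs, 174 CPM with 1, 237 CPM with 2 or 3 and 459 CPM with 4 or more. Each step of Pi16 was thus higher in Ackr3 than the one before. The Cxcl13 count rested on 1 cell, which held 55 of the 78 UMIs, and without it Cxcl13 was at 0.816 times the level of the other fibroblasts (23 against 33 UMIs). Ccl19 was 7.07-fold lower with classes taken from clusters.

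Cxcl14 and Cxcl12 followed C3, the central complement component, which marks another range of fibroblasts. In 1517 fibroblasts with 5 or more C3 UMIs, 3 of 8 genes were at least 2-fold higher than in the rest and 0 lower, against 1.92% of all genes higher, 3.77% lower and 5.69% in either direction. Cxcl14 was 4.52-fold higher (4.33 to 4.71) at 565 CPM, and Cxcl12 was 2.21-fold higher (2.10 to 2.33) at 239 CPM. With classes taken from clusters Cxcl12 was 1.41-fold higher, under the 2-fold line. Cxcl13 was 22.5-fold higher from 101 against 10 UMIs, a value carried by few cells that turned to the other direction with classes from clusters and without the 10 cells highest for it over both sides. Along C3, thinned Cxcl14 went from 114 through 221 and 456 to 848 CPM, and Cxcl12 from 112 through 149 and 209 to 306 CPM. Both ligands were thus higher at each step of C3, and Ackr3 went from 236 to 358 CPM.

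Cxcl14 was highest in the 794 fibroblasts with Hsd11b1, which activates glucocorticoids, and Penk, the enkephalin precursor. These stood at 936 CPM (912 to 961), 4.71-fold above the Pi16 and Cd248 cells (4.51 to 4.91), although 213 cells carried both pairs of markers. The thinned share of cells with a Cxcl14 UMI was 34.4% in them and 14.5% in all fibroblasts. The fibroblast gates share cells: 414 of the Hsd11b1 and Penk cells also passed the C3 gate, as did 740 of the Pi16 and Cd248 cells. Cxcl12 was close between the Igfbp3 and Osr1 (269 CPM), Hsd11b1 and Penk (249 CPM), C3 (239 CPM) and Wif1 and Comp (234 CPM) cells, and lowest in cycling fibroblasts at 41.4 CPM.

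Fibroblasts with Cthrc1 and Postn, genes of the activated, matrix-forming state, were low in these ligands. Of 8 genes, 2 were at least 2-fold lower in the 337 cells with both and 1 higher, against 6.06% of all genes lower, 4.1% higher and 10.2% in either direction. Ccl19 was 4.18-fold lower (2.37 to 8.15) and Cxcl14 3.44-fold lower (3.06 to 3.87). Cxcl12 stood at 85.5 CPM there, whereas Ackr3 at 276 CPM was near the 295 CPM of all fibroblasts. Along Postn, thinned Cxcl14 went from 507 through 131 and 59.4 to 38.7 CPM and Cxcl12 from 219 through 132 and 101 to 84.8 CPM, with Ackr3 between 257 and 300 CPM throughout. Over the other processings Ccl19 was 2.18-fold to 8.95-fold and Cxcl14 3.14-fold to 8.24-fold lower. Smooth muscle markers summed to 1371 CPM in the Cthrc1 and Postn cells against 301 CPM in other fibroblasts, and their part in these differences was not tested. Of the 337 Cthrc1 and Postn cells, 176 also passed the Pi16 and Cd248 gate, and the part of that overlap was not tested. The 1 gene higher was Ccl21a, for which 33 of 44 UMIs came from 1 cell that also carried 5 of 8 lymphatic markers; without that cell it was at 0.975 times the level of the other fibroblasts.

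**Figure D4:**
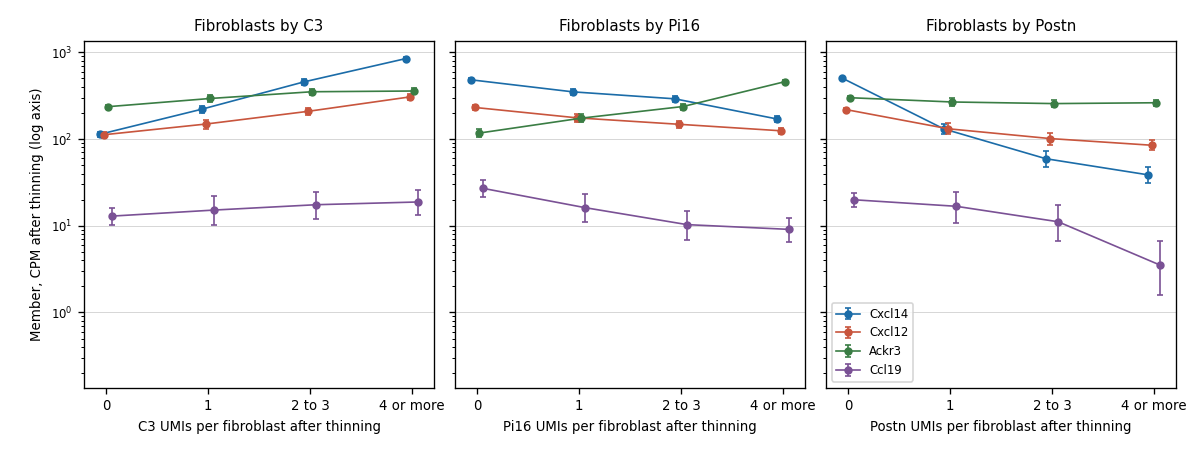
Cxcl14, Cxcl12, Ackr3 and Ccl19 levels (CPM, log axis) in fibroblasts thinned to 2500 UMIs, by the number of C3, Pi16 or Postn UMIs left in the cell (0, 1, 2 to 3, 4 or more; 3 panels), with 95% exact Poisson intervals as bars. Cxcl14 rises from 114 to 848 CPM along C3 and falls from 507 to 38.7 CPM along Postn, and Ackr3 rises from 117 to 459 CPM along Pi16.

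Cxcl14 was also counted in macrophages, at 25.0 CPM (21.9 to 28.3), which was 10.5-fold below fibroblasts (9.22 to 11.9) and 5.10-fold above T cells. The thinned share with a UMI was 5.81% of macrophages and 1.38% of T cells. Fibroblast RNA in the droplets was gauged by Dcn, an abundant fibroblast transcript: per 1000 Dcn UMIs there were 13.2 Cxcl14 UMIs in fibroblasts, 16.7 in T cells and 115 (101 to 132) in macrophages. Macrophages were also above fibroblasts in Cxcl12 per 1000 Dcn UMIs (17.9, 12.6 to 24.7, against 7.47) and in Ackr3 (41.9, 33.5 to 51.9, against 14.8), so a ratio above that of fibroblasts was not particular to Cxcl14. T cells were near macrophages in Cxcl12 (21.5, 9.78 to 41.3) and in Ackr3 (40.7, 23.5 to 65.9), but not in Cxcl14. The part of fibroblast RNA in macrophage Cxcl14 was not tested. The 166 macrophages with a Cxcl14 UMI had 200 CPM of Dcn against 218 CPM in the others. In these cells Arg1 was 15.2-fold, Fn1 5.90-fold and Spp1, a wound-type macrophage gene, 4.05-fold higher than in the other macrophages, with UMIs in 15, 32 and 48 of the 166. Among the other 1453 macrophages, 40, 190 and 304 cells had a UMI of them. Genes outside the wound-type list were also higher from few cells: Slpi 23.1-fold with UMIs in 7 of the 166, and Cxcl9 8.37-fold in 3. These genes were chosen after their values were seen. The other genes of the wound-type list, Fabp5, Gpnmb and Trem2, are not given here, so the list as a whole was not read.

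Ccl19, the soluble Ccr7 ligand that lymph node stroma makes, was scarce: 542 UMIs in 384 cells, of which 504 were in fibroblasts. Fibroblasts stood at 12.9 CPM (11.8 to 14.0), with a UMI in 3.09% of thinned cells, and leukocytes held 1 UMI against 508 in stroma and endothelium, a ratio of 228 (40.7 to 9020) that was 25.5 with classes from clusters. The 28 Wif1 and Comp cells stood at 50.4 CPM (25.2 to 90.1), 3.92-fold above all fibroblasts (1.94 to 7.07), from 11 UMIs. The highest of the 29 clusters stood above them, at 108 CPM in 121 cells, of which 92.6% were gated fibroblasts. Cxcl14 was at 3.68 CPM in that cluster. Pi16 and Cd248 cells stood at 7.64 CPM, and along Pi16 thinned Ccl19 went from 27.0 through 16.2 and 10.3 to 9.09 CPM, the order opposite to that of Ackr3. Along Postn it went from 19.9 to 3.52 CPM, so that the gene was lower where either count was high.

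A feature named Ccl19-ps2 was counted more often than Ccl19, with 836 UMIs in 567 cells and 19.7 CPM in fibroblasts. Thinned fibroblasts with a Ccl19-ps2 UMI also had Ccl19 in 19.1% of cells, against 2.29% of those without. How reads shared by both features were split is not given in the sources used here, so the Ccl19 level carries that uncertainty.

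Ccl21a, the matrix-binding Ccr7 ligand by which lymphatic vessels draw in dendritic cells and T cells, was concentrated in 1 class. It stood at 27632 CPM in 61 lymphatic cells, with UMIs in 59 of them (96.7%) and up to 364 UMIs in 1 cell. The endothelial cells without a subclass held 424 UMIs, 421 of them in 2 cells with 2 and 7 of the 8 lymphatic markers. Fibroblasts stood at 3.96 CPM, B cells at 1.88 CPM and macrophages at 3.47 CPM, with 1 UMI at most in any macrophage. Levels outside the lymphatic class were therefore low and alike across classes, apart from single cells with lymphatic markers.

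The Ccl21a count of T cells rested on such cells. T cells were 21.2-fold above B cells (3.65 to 852) from 57 against 1 UMIs, and 50 of the 57 lay in 2 cells that carried 5 and 6 lymphatic markers beside their 5 to 8 T cell markers. The other 361 T cells stood at 4.93 CPM (1.98 to 10.2).

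Cxcl13, the B cell follicle chemokine, was counted in a few macrophages. Macrophages held 701 UMIs in 21 of 1619 cells (71.4 CPM, 66.2 to 76.9), with up to 140 UMIs in 1 cell. Those with 4 to 6 of 6 resident macrophage markers stood at 158 CPM, which came from cells with 5 (292 CPM) or 6 (191 CPM). Macrophages with 4 stood at 1.60 CPM and those with 3 at 0.836 CPM. With 0, 1 and 2 markers the levels were 16.7, 42.7 and 43.8 CPM, so Cxcl13 did not rise step by step with that count. Monocytes, dendritic cells, B cells and T cells had 0 UMIs. The 15 macrophages with 5 or more Cxcl13 UMIs held 688 of the 701 and carried 5 to 9 of the 9 macrophage markers and 1 to 4 fibroblast markers, whose median of 2 equalled that of the other macrophages. Cxcl13 was thus counted in very few macrophages with many UMIs each, and not at a low level in many.

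Those 15 cells differed from the other macrophages in named genes, chosen after their values were seen. Cd207 (langerin) was at 2862 CPM against 59.9 CPM, 47.8-fold, with UMIs in 12 of the 15. Vsig4, a complement receptor of tissue macrophages, was at 2484 CPM against 62.3 CPM, 39.9-fold, in 13 of the 15. Timd4, Id3 and Cd163 were 6.20-fold, 5.81-fold and 5.10-fold higher, and Clec4f 60.9-fold higher from 4 cells. The resident macrophage markers beside Timd4 and Cd163 differed less: Lyve1 was at 2.79-fold, Folr2 at 2.11-fold, Gas6 at 1.23-fold and F13a1 at 1.06-fold. A further 5 fibroblasts held 97 of the 111 fibroblast UMIs of Cxcl13; they carried 6 to 8 fibroblast markers and 0 to 2 macrophage markers, and in them Has1 and Tnfaip6, which build and crosslink hyaluronan, were 10.2-fold and 9.60-fold higher than in other fibroblasts, with UMIs in 2 and 4 of the 5. Wt1, an epicardial gene, was 101-fold higher in those cells, with UMIs in 4 of 5 and 10 UMIs in all. Msln, of the same mesothelial or epicardial list, had 0 UMIs in them and 6 in the fibroblasts without Cxcl13.

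Cxcr4 was the broadest receptor and was counted in every leukocyte class. It was highest in 55 non-classical monocytes at 1058 CPM (925 to 1204), 2.75-fold above the 229 classical monocytes (385 CPM, 352 to 421; ratio 2.34 to 3.22) and 3.48-fold above macrophages (304 CPM). Natural killer cells stood at 334 CPM, type 2 conventional dendritic cells (cDC2) at 259 CPM, T cells at 191 CPM and B cells at 167 CPM, and cDC1 at 111 CPM was lowest among the larger classes. The thinned share with a UMI was 78.2% of non-classical monocytes, 52.0% of classical monocytes, 41.1% of macrophages, 32.1% of B cells and 29.2% of T cells. Fibroblasts, the background class, had 0.783%, and 2.51% before thinning. From classical monocytes down to B cells, ratio intervals of neighbouring pairs in the order held 1, while classes further apart were separated: natural killer cells were 1.75-fold above T cells (1.34 to 2.26).

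The non-classical class also carried capillary-list markers at 2932 CPM and pan-endothelial markers at 83.5 CPM. Capillary cells had Cxcr4 at 12.3 CPM. The part of capillary RNA in the non-classical values was not tested. Among macrophages, Cxcr4 was 1.61-fold higher in those with 0 resident markers (410 CPM) than in those with 4 to 6 (255 CPM; 1.46 to 1.77). Classical and non-classical monocytes together were 1.59-fold above macrophages (1.46 to 1.73), under the 2-fold line. Against macrophages, 4 of 7 genes were at least 2-fold lower in monocytes and 0 higher, against 20.4% of all genes lower in monocytes, 8.19% higher and 28.6% in either direction. Of these, Cxcl13 was at least 35.1-fold lower and Cxcl14 3.68-fold lower (1.97 to 7.77), while Ccr7 (1 against 34 UMIs) and Cxcl12 (2 against 38) had intervals that held 1. The lower counts in monocytes hence included 2 that the depth cannot separate. Without the 10 highest cells over both sides Cxcl13 was at least 2.97-fold lower, and with classes from clusters Cxcl14 was 1.11-fold lower.

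Ccr7, the receptor for Ccl19 and Ccl21a, was counted mainly in lymphocytes and dendritic cells. The 6 mature dendritic cells held 289 UMIs at 5837 CPM (5184 to 6550), with UMIs in each of the 6. B cells stood at 1266 CPM (1172 to 1366) with 82.8% of thinned cells positive, and T cells at 562 CPM (524 to 602) with 42.1%. Fibroblasts and macrophages stood at 2.07 and 3.47 CPM, with 0.412% and 0.679% of thinned cells positive. Before thinning the share was 89.6% of B cells at a median of 3369 UMIs and 1.32% of fibroblasts at 7587 UMIs, so the deeper class had the lower share.

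T cells were not uniform. The 190 T cells with 3 to 5 markers of the naive type had Ccr7 at 1016 CPM and in 72.1% of thinned cells, the 128 with 0 or 1 had it at 31.2 CPM and in 3.91%, a ratio of 32.6 (19.9 to 57.3). T cells with Cd8a or Cd8b1 UMIs stood at 779 CPM, 2.22-fold above those with Cd4 or Cd40lg and no Cd8 (351 CPM; 1.77 to 2.81). These are ranges of a marker count and not separate cell types.

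Between B and T cells, 2 of 5 genes were at least 2-fold higher in B cells and 1 in T cells, against 8.84% of all genes higher in B cells, 15.9% in T cells and 24.7% in either. Ccr7 was 2.25-fold higher in B cells (2.03 to 2.50) and Cxcr5, the Cxcl13 receptor, 24.6-fold higher (11.3 to 63.6). Cxcr5 stood at 120 CPM in B cells (92.7 to 154, 64 UMIs) and 4.90 CPM in T cells (7 UMIs), with a UMI in 27.6% and 0.551% of thinned cells and in 0.124% of fibroblasts. All 7 T cell UMIs lay in the range with 3 to 5 naive-type markers. Of the 9 genes Cxcr5 had the fewest UMIs, 147 in all, and its ratio ranged from 16.5 to 42.4 over the other processings; that of Ccr7 was 1.46 with classes from clusters.

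Among dendritic cells against macrophages, 1 of 7 genes was at least 2-fold higher in dendritic cells and 2 in macrophages, against 7.25% of all genes higher in dendritic cells, 21.1% in macrophages and 28.4% in either. Ccr7 was 113-fold higher in dendritic cells (80.0 to 166), Cxcl13 at least 26.5-fold lower and Cxcl14 4.64-fold lower (2.10 to 12.8). Ccr7 separated the dendritic classes: mature cells were 28.0-fold above cDC2 at 209 CPM (22.9 to 34.3), and cDC1 had 0 UMIs. Of the cDC2, 9 cells held 124 of the 149 UMIs with 0 to 2 mature dendritic markers each; Ccl22, a chemokine of mature dendritic cells, was found in 3 of the 9 and Ccl17 in 2. The cDC2 level is accordingly that of few cells. Over the other processings the ratio of dendritic cells to macrophages was 22.1 to 136 for Ccr7, and the deficit was 2.18-fold to 10.2-fold for Cxcl14 and at least 2.25-fold for Cxcl13.

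**Figure D5:**
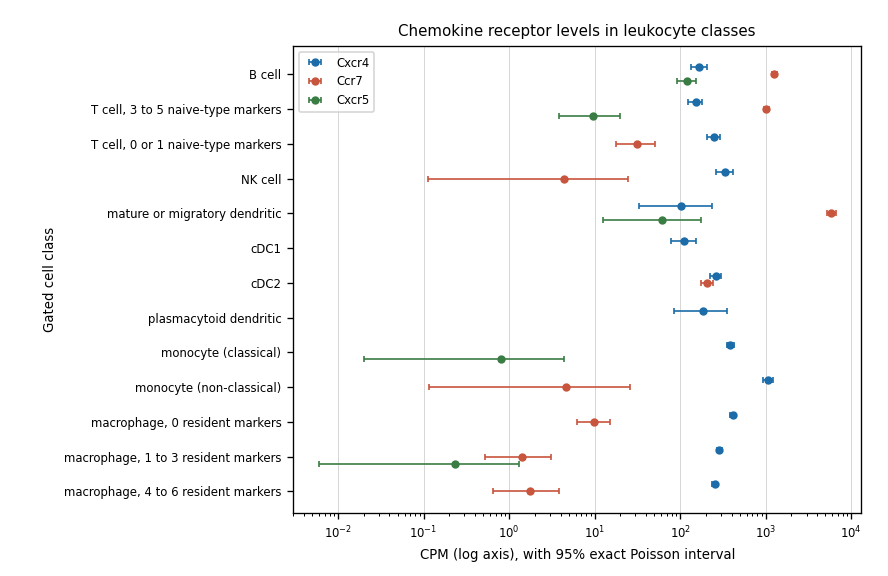
Cxcr4, Ccr7 and Cxcr5 levels (CPM, log axis, points with 95% exact Poisson intervals) in 13 leukocyte classes of 1 pooled library; classes at 0 UMIs are not drawn. Cxcr4 is present in each class and peaks at 1058 CPM in non-classical monocytes, Ccr7 peaks at 5837 CPM in mature dendritic cells and Cxcr5 at 120 CPM in B cells.

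Pairs of the 9 genes were also read within single cells after thinning. In B cells 23.1% had both Ccr7 and Cxcr5, and 29.9% both Ccr7 and Cxcr4, with Ccr7 in 93.0% of Cxcr4-positive and 78.0% of other B cells. In T cells 10.7% had both Ccr7 and Cxcr4, and Ccr7 was found in 36.8% of Cxcr4-positive against 44.4% of other T cells. The intervals of these shares overlapped in B cells (80.9% to 98.5% against 68.1% to 86.0%). They also overlapped in T cells (27.6% to 46.7% against 38.2% to 50.7%). In capillary cells 17.4% had both Cxcl12 and Ackr3, and Cxcl12 was found in 60.9% of Ackr3-positive and 58.3% of other cells, a gap smaller than 161 cells resolve. In fibroblasts Cxcl12 was found in 37.6% of Cxcl14-positive and 26.3% of other cells, while Cxcl12 and Ackr3 were nearly unrelated at 27.3% against 28.3%. Cxcl12 was thus more frequent beside Cxcl14 and about as frequent with as without Ackr3.

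The genes most like each of the 9 in profile were ranked over 16 classes of at least 20 cells, by Pearson's r of log2(CPM + 1) over 11740 genes; the classes share 1 library, so r is a description. For Cxcl12 they were Meox2 (0.956), itself a capillary marker, Apbb2 (0.949) and Pls3 (0.935). For Ackr3 they were Dpysl3 (0.935), Atp9a (0.916) and Aamdc (0.915), and for Cxcr4 Pik3cd (0.951), Ncf4 (0.943) and Bin2 (0.942). For Ccl21a the lymphatic marker Mmrn1 led at 0.944 and the next, Slc38a4, was at 0.800. Ccr7 was closest to Ltb (0.836), Cxcl14 to Aspa (0.886), Cxcl13 to Pigz (0.847) and Ccl19 to Arhgap20 (0.960). Cxcr5 was under 200 UMIs and was not ranked.

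A further 3 gene lists place the 9 genes in their pathways, as counts and medians of the log2 ratio of stroma and endothelium to leukocytes, beside a median of 0.265 over all genes. Of 20 other homeostatic chemokines and receptors with enough counts, 5 were at least 2-fold higher in stroma, 14 in leukocytes and 1 in neither, with a median of -4.40. Ackr4, a scavenger of Ccl19 and Ccl21, was 171-fold higher in stroma (89.8 to 373), at 127 CPM in endocardial cells and 83.9 CPM in fibroblasts. Ackr2, a scavenger of inflammatory CC chemokines, was at 73.4 CPM in lymphatic cells and 9.98 CPM in fibroblasts. Cxcr6 and Xcl1 were 139-fold and 102-fold higher in leukocytes. Ccrl2, a non-signalling receptor that presents chemerin, was 9.99-fold higher in leukocytes.

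Of 29 genes of lymphoid tissue organisation, 7 were higher in stroma, 14 in leukocytes and 8 in neither (median -0.885). Pdpn, a marker of lymphatic vessels and lymph node stroma, was 19.2-fold and the adhesion molecule Vcam1 4.90-fold higher in stroma; the oxysterol receptor Gpr183 was 112-fold and lymphotoxin beta (Ltb) 83.4-fold higher in leukocytes. Of 24 genes of Cxcr4 signalling, 5 were higher in stroma, 10 in leukocytes and 9 in neither (median -0.601). Mmp2, a protease that can cleave Cxcl12, was 53.3-fold higher in stroma. Icam1, at 1.08-fold, was among those past the line in neither direction.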

How the data were processed

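The series holds 1 droplet gene expression library (10x 3′ v3.1, target 10000 cells) of 7 mice. The deposited matrix, made by the authors, holds raw UMI counts per gene and cell; the submitters' processing notes name STARsolo, Scanpy and mm10, and versions and settings are not given in the sources used here. The hashtag library was not analysed here.

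From these counts, doublets were called with Scanpy 1.11.5 (Scrublet) and left out, and cells were gated on raw UMIs of 47 fixed marker lists (283 genes); the gate thresholds were set after marker counts had been seen. UMIs were summed per class and divided by the class total (CPM). A gene was called at 20 UMIs over both sides and a ratio of 2 or more; a side at 0 was set to a floor of 3 counts. Intervals are exact at 95% (SciPy 1.17.1). With 1 library there was no test. Named genes were the 9 members, the 3 closest in profile, pathway genes with the largest ratios or most UMIs, and markers. The ratio code was tested on simulated data. A total of 9 alternatives were planned and 2 (without the 10 highest cells or the 1 highest cell) added after the data were seen. The members and lists were chosen with earlier results of these data known. Of the feature identifiers, 52029 of 56954 matched GENCODE M21.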

Additional observations from a re-analysis of the deposited data

Results flagged for a closer look

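Some of the counts lay outside the gated classes or the 9 genes. Ccl19-ps2, which is not among the 9 genes, had 773 UMIs in fibroblasts, more than the 504 of Ccl19 itself. The 90 cells that passed no lineage gate held 60 Cxcr4 UMIs in 34 cells (156 CPM against 99.1 CPM in gated cells). They held 90 Cxcl13 UMIs in 3 cells with 7 or 8 of 9 macrophage markers and 5 of 6 resident macrophage markers (234 against 13.5 CPM). They also held 167 Ccl21a UMIs (435 against 153 CPM), 162 of them in 1 cell with 6 of 8 lymphatic and 2 of 7 pan-endothelial markers.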

How the results depend on the processing

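Of 31 ratios past 2-fold, 26 kept their direction and 22 stayed at least 2-fold in each alternative that gave a value. With classes from clusters made without the 9 genes, 3 turned: Cxcl13 in C3 fibroblasts (log2 ratio -3.22), and Cxcl12 (0.82) and Ccr7 (0.73) in monocytes against macrophages. Cxcl13 in C3 fibroblasts also turned without its 10 highest cells over both sides (-0.65). Without the 1 cell with most UMIs of the gene, Cxcl13 in Pi16 and Cd248 fibroblasts (-0.29) and Ccl21a in Cthrc1 and Postn fibroblasts (-0.037) turned. The number of genes past 2-fold became 5 between capillary and lymphatic cells, 5 for Pi16 and Cd248 fibroblasts, 5 for Cthrc1 and Postn fibroblasts and 1 for monocytes with classes from clusters; 5 for Cthrc1 and Postn fibroblasts and 2 for monocytes after thinning; and 2 for monocytes at a minimum of 50 UMIs. The cause was not tested. With all UMIs of a cell, co-detection was 34.2% for Cxcl12 and Ackr3 in capillary cells, 12.6% for Cxcl12 and Cxcl14, 10.8% for Ackr3 and Cxcl14 and 29.3% for Cxcl12 and Ackr3 in fibroblasts, and 16.8% and 39.6% for Ccr7 and Cxcr4 in T and B cells.

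TMM scaling shifted all log2 ratios by -0.124 between stroma and leukocytes and by 0.150 between capillary and lymphatic cells. The class highest in Cxcl12 was capillary and not arterial with classes from clusters and without the 10 highest cells of each class. For Ackr3, among 16 classes, it was fibroblast and not lymphatic without the 10 highest cells of each class. Leaving out 10 cells takes a larger share of a small class, so these changes of order cannot be read apart from class size. Depth limits Cxcr5, Ccl19 and the classes under 20 cells, and 7 mice in 1 pool leave no replicate error. No paired analysis was possible because the study has 1 pooled gene expression library.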
